A study of Mus musculus with 6 samples.

Results

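Small nucleolar RNAs (snoRNAs) were described in the prefrontal cortex of mice through the 57 gene symbols that carried a count in at least 2 of 6 RNA-seq libraries. They were chosen by name: a symbol had to read Snord or Snora, a number and at most trailing letters, which 121 of the 54429 rows of the count tables did. A first limit of 10 counts in 2 libraries left 21 symbols, under the minimum of 30 set for it, so any count in 2 libraries was used. Of the 57 members, 39 were box C/D snoRNAs (Snord) and 18 H/ACA snoRNAs (Snora). Another 60 symbols were at 0 in all libraries and 4 had counts in 1 library.

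The libraries came from 6-month-old mice, 2 biological replicates in each of 3 groups. WT mice were non-transgenic (C57BL/6 x C3H) animals given vehicle. Tau mice were PS19(P301S) animals, which carry a mutant human tau transgene driven by the mouse prion promoter, also given vehicle. UNC0642 mice were PS19(P301S) animals injected with UNC0642, an inhibitor of the histone methyltransferases EHMT1 and EHMT2, and there was no WT group given UNC0642. Ribosomal RNA was depleted from total RNA and strand-specific libraries were made, in which the authors counted 17005664 to 28972176 reads per library over all genes. Levels are given as CPM, counts relative to a common library total, with library sizes scaled by the trimmed mean of M-values (TMM).

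Labels and tissue were checked first. Prnp was at 1652 CPM in the library labelled WT replicate 1 and at 873 CPM in WT replicate 2, while the other 4 libraries had 1470 to 1694 CPM, so WT replicate 1 went against its label on the gene whose promoter drives the transgene. The calls in comparisons with WT are therefore also given without it. Xist, the RNA of the inactive X chromosome, had 4104 to 8107 counts in WT replicate 2 and both Tau libraries, and 2 to 5 counts in the library labelled WT replicate 1 and both UNC0642 libraries. The comparison of UNC0642 with Tau mice coincided with this difference, and treatment and sex cannot be told apart in it. All 8 neuron markers examined were expressed, at a summed 6899 to 7598 CPM. The library of Tau replicate 2 stood apart in 2 other marker lists, at 5407 CPM summed over 7 oligodendrocyte markers and 181 CPM over 6 striatal neuron markers, against 1426 to 2901 and 67.9 to 88.0 CPM in the other 5 libraries. In bulk tissue, fewer cells of a type and less RNA per cell cannot be told apart.

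snoRNAs are short nuclear RNAs that guide chemical changes in ribosomal and spliceosomal RNA by base pairing. Box C/D snoRNAs are bound by Fbl, Nop56, Nop58 and Snu13 and direct the methylation of riboses, and H/ACA snoRNAs are bound by Dkc1, Nhp2, Nop10 and Gar1 and direct the conversion of uridine to pseudouridine. In mammals most are cut from the introns of host genes after splicing, and many hosts encode ribosomal proteins or factors of ribosome assembly. A few, among them Snord118 (U8) and Snord13 (U13), are transcribed from genes of their own and act in the processing or modification of ribosomal RNA precursors.

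The sequences of the 4 members with the highest level per length and of Snora23, the remaining member called between groups, are shown because the comparisons turn on them. They are the GENCODE M21 transcripts on GRCm38 (mm10), 5′ to 3′, and capitals mark the C box (TGATGA, within the first 25 bases) and the D box (CTGA, within the last 15) of box C/D snoRNAs, and the ACA box (ACA within the last 8 bases, the one exactly 3 bases from the end where there is one) of H/ACA snoRNAs. Snord17 lies at chr2:144265979-144266216 on the minus strand, Snord91a at chr11:74905424-74905516 on the plus strand and Snord104 at chr11:106500993-106501062 on the plus strand. Snora78 lies at chr17:24719676-24719803 on the minus strand and Snora23 at chr7:110046364-110046547 on the plus strand.
Snord17: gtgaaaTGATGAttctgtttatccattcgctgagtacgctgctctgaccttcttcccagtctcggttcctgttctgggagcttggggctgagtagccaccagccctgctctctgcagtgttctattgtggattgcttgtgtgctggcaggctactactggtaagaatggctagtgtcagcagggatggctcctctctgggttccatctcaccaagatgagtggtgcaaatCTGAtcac
Snord91a: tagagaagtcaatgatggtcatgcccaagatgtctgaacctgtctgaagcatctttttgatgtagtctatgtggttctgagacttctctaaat
Snord104: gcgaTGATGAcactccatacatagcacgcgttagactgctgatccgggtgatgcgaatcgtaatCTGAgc
Snora78: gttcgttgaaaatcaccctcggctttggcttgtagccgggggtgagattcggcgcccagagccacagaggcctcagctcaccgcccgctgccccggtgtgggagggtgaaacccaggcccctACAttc
Snora23: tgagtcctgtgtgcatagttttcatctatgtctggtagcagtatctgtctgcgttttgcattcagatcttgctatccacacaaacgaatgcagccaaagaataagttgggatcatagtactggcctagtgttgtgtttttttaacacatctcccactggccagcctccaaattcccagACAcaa

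The letters went with the class for most symbols but did not sort them all, as 49 of 80 box C/D symbols held both boxes. Among the 80 box C/D symbols with a single annotated gene, 51 held the C box and 73 the D box in these windows, and among the 38 H/ACA symbols 0 held the C box and 1 the D box. The ACA box was found in 36 of 38 H/ACA symbols, in 32 of them exactly 3 bases from the end, and in 7 of 80 box C/D symbols, in 0 of them at that place. Only the strand of the transcript was searched. Snord91a is shown in lower case throughout, since neither the C box nor the D box was found with these letters in its windows.

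Whether a snoRNA had counts at all differed with its place in the annotation. Of 55 symbols that no exon of another gene overlapped on the same strand, 50 were members (90.9%, exact 95% interval 80.0 to 97.0%), and of 63 overlapped symbols 6 were (9.52%, 3.58 to 19.6%). The split was present in both classes, at 37 of 41 against 2 of 39 for box C/D and at 13 of 14 against 4 of 24 for H/ACA. Of the 58 symbols at 0 with a single annotated gene, 54 overlapped an exon. In 16 of them it was one of a ribosomal protein gene named Rpl or Rps and a number. In 11 it was one of a small nucleolar RNA host gene (Snhg or Gas5). The 16 leave out Snora52, which overlapped an exon of the ribosomal protein gene Rplp2. MicroRNA hairpins, which are of similar length, had counts in 2 libraries for 533 of 1781 genes outside the exons of others (29.9%). For overlapped hairpins it was 38 of 412 (9.22%). Annotated snoRNAs whose symbols fell outside the naming rule were also lower than the named ones outside such exons, at 340 of 1238 genes (27.5%). Of the overlapped ones 10 of 98 had such counts (10.2%). Small Cajal body RNAs did not show the split, at 20 of 37 genes outside such exons (54.1%) and 3 of 5 overlapped genes (60.0%). The exact 95% interval of the latter, 14.7 to 94.7%, is wide. These intervals cover the number of genes only, and a symbol at 0 allows up to 3 counts in a library, or 0.104 to 0.176 when scaled to CPM. How reads over several genes were counted is not given in the sources used here, and its part in the split was not tested.

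**Figure D1:**
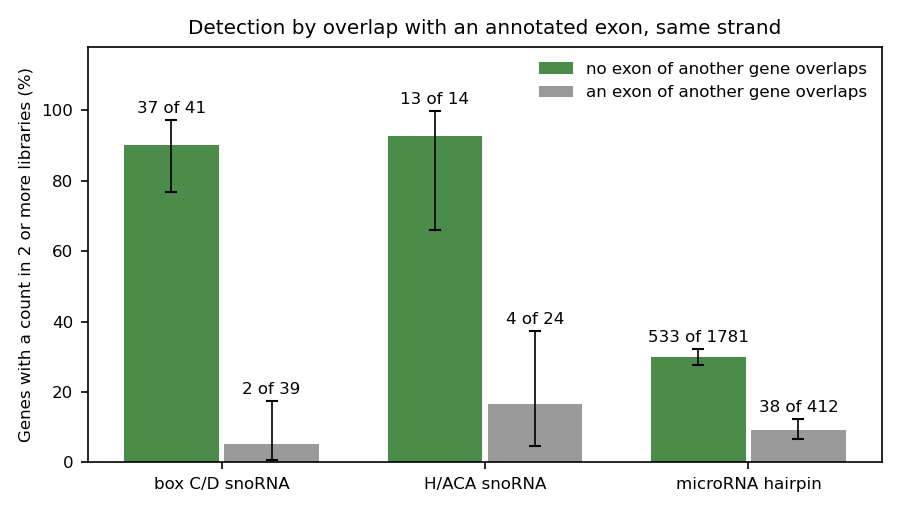
Percent of annotated genes with a count in at least 2 of the 6 libraries (vertical axis), for box C/D snoRNAs, H/ACA snoRNAs and microRNA hairpins, separated by whether an exon of another gene overlaps the gene on the same strand (grey) or not (green). Error bars are exact 95% binomial intervals over genes. Both snoRNA classes stand at about the same height outside exons, 37 of 41 and 13 of 14, and are low inside them.

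The exceptions to this split were few. Snord42b in Rpl23a, Snord66 in Eif4g1 and Snora2b in Kansl2 overlapped an exon of their host and still had 20, 7 and 8 counts over the 6 libraries. Snora34, Snora19 and Snora36b overlapped a microRNA gene and had 13, 11 and 4 counts. In the other direction, Snord42a, Snord4a, Snord123 and Snora73b overlapped no exon on their own strand and were at 0 in all libraries. Snord42a and Snord4a overlapped an exon of Tlcd1 and Snora73b one of Gm17300 on the opposite strand, which no member did, and Snora73b has a near-identical copy, Snora73a. At the limit of the rule, Snora36b was a member with 1 count in each of 4 libraries, while Snord93 with 3 counts in the library labelled WT replicate 1 and Snord111 with 3 counts in UNC0642 replicate 1 were not.

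The members' levels were dominated by a box C/D and an H/ACA snoRNA. Snord17, which lies in an intron of Snx5, a sorting nexin gene, reached a mean of 109.8 CPM per kb of gene length, and Snora78, in the long noncoding host gene Snhg9, 56.8 CPM per kb. Snord17 was the higher of the pair in 6 of 6 libraries, at 86.6 to 135 against 29.6 to 96.4 CPM per kb. Together they made up 59.0 to 73.9% of the members' counts in a library. Snord91a, in the ribosome assembly gene Tsr1, followed at 27.0 CPM per kb and was at 21.6 to 33.1 CPM per kb over the libraries, so that it overlapped the range of Snora78. Snord104, which no annotated gene hosts, was next at 15.2 CPM per kb, with 11.5 to 18.4 CPM per kb in single libraries, under the range of Snord91a. Of the 56 members with a single annotated gene, these 4 were above 10 CPM per kb, 41 lay between 1 and 10, and 11 were under 1.

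Length did not order the levels among the members. Box C/D members were 64 to 238 bases long (median 83) and H/ACA members 128 to 184 bases (median 132), and over the 56 members Spearman's rho between length and CPM per kb was -0.035, a description over genes that share libraries and depth. The median level was 2.68 CPM per kb in box C/D and 1.94 in H/ACA members. Snord17 is the longest member, at 238 bases, and Snord104, at 70 bases, is among the shorter ones.

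**Figure D2:**
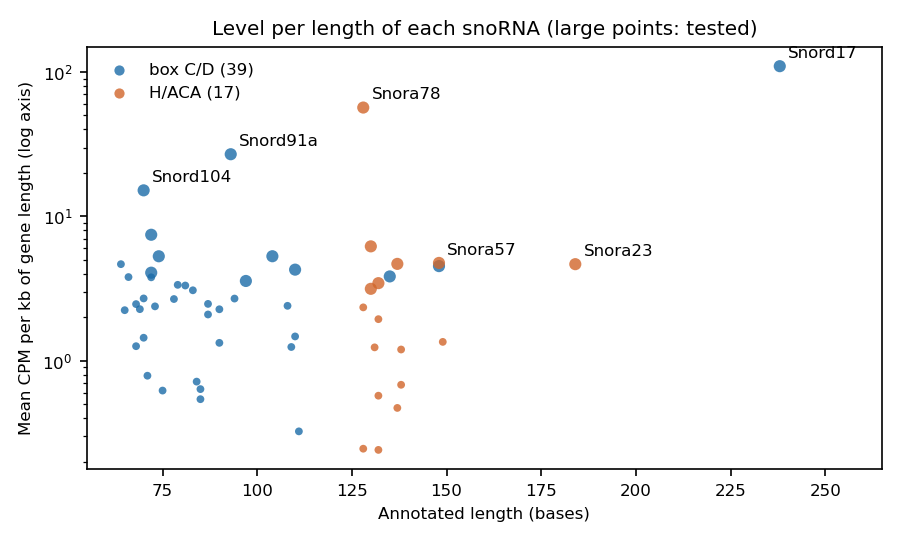
Mean level over the 6 libraries in CPM per kb (vertical log axis) against annotated length in bases (horizontal axis) of the 56 members with a single annotated gene, box C/D in blue and H/ACA in orange. Large points were tested between groups. Snord17 at 238 bases and Snora78 at 128 bases stand above the other members of their classes, and most points lie between 1 and 10 CPM per kb.

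In total the members held 7021 counts, of which 19 members kept for testing held 6204. Those 19, 11 box C/D and 8 H/ACA, passed the filter on low counts, and 5 of them had at least 10 counts in every library. The other 38 members had 4 to 41 counts over the 6 libraries (median 23). They were too low for the filter of the main fit and were not tested in it, so differences in them could be missed. A member can pass such a filter through the group in which it is high, so counts over the 19 describe those 19 alone.

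The summed level of the classes varied most between the WT libraries. Box C/D members summed to 31.9 and 43.2 CPM in WT replicates 1 and 2, to 41.7 and 40.8 CPM in Tau mice, and to 36.9 and 34.4 CPM in UNC0642 mice. H/ACA members summed to 11.0 and 20.7 CPM in WT, 13.9 and 13.8 CPM in Tau, and 9.53 and 9.88 CPM in UNC0642 mice. In both classes the UNC0642 libraries lay below both Tau libraries and between or below the WT libraries. Box C/D snoRNAs made up 74.3% (exact 95% interval of counting 71.6 to 76.9%) and 67.6% (65.3 to 69.9%) of the members' counts in WT, 75.0% and 74.7% in Tau, and 79.5% and 77.7% in UNC0642 mice. The UNC0642 shares were the highest, and the groups Tau and UNC0642 did not overlap, but with 2 libraries a group an exact two-sided permutation test cannot give a p below 0.333.

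The sums were also taken without the leading member of each class. Without Snord17 the box C/D sum was 11.3 and 13.5 CPM in WT, 9.47 and 11.7 CPM in Tau and 14.2 and 12.04 CPM in UNC0642 mice, with the UNC0642 libraries now above both Tau libraries. Without Snora78 the H/ACA sum was 5.01 and 8.36 CPM in WT, 5.04 and 6.30 CPM in Tau and 4.44 and 6.09 CPM in UNC0642 mice, and all 3 groups overlapped. The 38 untested members summed to 5.80 and 6.99 CPM in WT, 5.04 and 6.07 CPM in Tau and 6.63 and 5.82 CPM in UNC0642 mice, also with overlap between all groups.

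**Figure D3:**
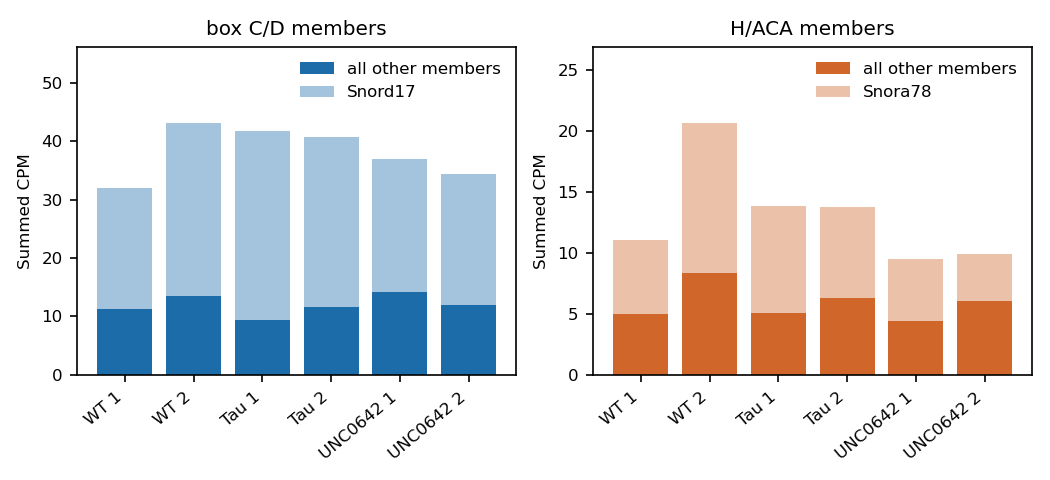
Summed CPM (vertical axis) of the 39 box C/D members (left, blue) and the 18 H/ACA members (right, orange) in each of the 6 libraries. The pale part of a bar is Snord17 or Snora78 and the dark part all other members of the class. WT replicate 2 has the tallest bar in both panels, at 43.2 and 20.7 CPM, and the dark parts vary less between groups than the pale parts.

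Tau mice were compared with WT mice to find which snoRNAs differed with the transgene. None of the 19 tested members was called, where a call needed a fold change of 1.2 or more and an unadjusted p under 0.05 by the quasi-likelihood test of edgeR. Over all 20409 genes tested, 3.72% were called higher and 6.10% lower in this comparison. At an unadjusted p under 0.05 alone 0 members passed, against 12.4% of all genes, at a Benjamini-Hochberg adjusted p under 0.05 none did, against 0.157%, DESeq2 also called 0, and the smallest adjusted p of the edgeR test was 0.432. The median log2 fold change was -0.45 over the 11 box C/D and -0.20 over the 8 H/ACA members, against -0.00011 over all genes tested. Leaving out 1 library turned the direction of both medians. That of box C/D was 0.13 without Tau replicate 1, and that of H/ACA 0.67 without WT replicate 2 and 0.0034 without Tau replicate 1. The filter was run again in each such fit, so low members outside the 19 could enter. These medians are therefore not over a fixed set of members. Signs were mixed, with 7 members positive and 12 negative.

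Snord17 had 20.6 and 29.7 CPM in WT and 32.2 and 29.1 CPM in Tau mice. WT replicate 2 lay among the Tau libraries and the library labelled WT replicate 1 below them, and the log2 difference was 0.29 ± 0.16 (SE, 95% interval -0.06 to 0.64, adjusted p = 0.489 by edgeR). Snora78 had 6.03 and 12.3 CPM in WT and 8.83 and 7.50 CPM in Tau mice, so that both Tau libraries fell between the WT libraries (log2 difference -0.17 ± 0.30). Snord91a was at 2.01 and 2.27 CPM in WT and at 2.29 and 2.58 CPM in Tau mice, a log2 difference of 0.18 ± 0.28.

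The most negative estimates were those of low members. Snord89 had 6 and 27 counts in WT and 8 and 4 in Tau mice, and its log2 difference of -1.29 ± 0.76 rested on WT replicate 2. Snora21, in the ribosomal protein gene Rpl23, had 18 and 32 counts in WT and 11 and 9 counts in Tau mice, which did not overlap (log2 difference -1.12 ± 0.55, adjusted p = 0.432 by edgeR). Snora21 has a near-identical annotated copy, so its counts are uncertain. The most positive box C/D estimate was that of Snord15a in the ribosomal protein gene Rps3, at 0.56 ± 0.50, with 12 and 16 counts in WT and 23 and 14 in Tau mice.

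The answer depended on which WT library was used. Without the library labelled WT replicate 1, the members Snora21 (log2 difference -1.47), Snora78 (-0.59) and Snord89 (-1.99) were called lower in Tau mice, with adjusted p-values of 0.418 to 0.468 by edgeR. Without WT replicate 2, Snord17 was called higher at a log2 difference of 0.58 (adjusted p = 0.114 by edgeR), together with Snord72, which had 0 counts in the library labelled WT replicate 1, 8 counts in WT replicate 2, and 11 and 3 counts in Tau mice. Without Tau replicate 1, Snord23 was called higher, with 9 of its 15 counts in Tau replicate 2. Without WT replicate 2, the WT library left had low Xist and both Tau libraries had high Xist. In WT replicate 2, 7 of the 19 tested members had their highest level of all libraries and 0 their lowest. In the library labelled WT replicate 1, 0 had their highest and 6 their lowest. These counts describe the 19 members alone, and the same counts over all genes are not given.

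UNC0642-treated and vehicle-treated Tau mice were compared to find which snoRNAs differed with EHMT inhibition. Snord17, Snora78 and Snora23 were called lower and no member was called higher, or 3 of 19 tested members, while 3.95% of all genes tested were called lower and 3.73% higher. None passed at an adjusted p under 0.05, which 0.0196% of all genes did, and the smallest adjusted p was 0.476. Of the 11 box C/D members 7 had a positive estimate, with a median log2 fold change of 0.37, and of the 8 H/ACA members 4, with a median of -0.18, against -0.0023 over all genes tested. The H/ACA median was 0.32 without Tau replicate 2 and 0.11 without UNC0642 replicate 1, each over the members that passed the filter in that fit.

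Snord17 had 32.2 and 29.1 CPM in Tau mice and 22.8 and 22.3 CPM in UNC0642 mice. The groups did not overlap, and the 2 libraries of each group lay closer to each other than to the other group. Its log2 difference was -0.44 ± 0.16 (SE, 95% interval -0.80 to -0.09, adjusted p = 0.480 by edgeR), or 1.36-fold lower. Snora78 had 8.83 and 7.50 CPM in Tau mice and 5.09 and 3.79 CPM in UNC0642 mice. Both UNC0642 libraries were again the lower ones, by 1.86-fold (log2 difference -0.89 ± 0.32, 95% interval -1.59 to -0.19, adjusted p = 0.476 by edgeR).

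Snora23, which lies in an intron of the nuclear import gene Ipo7, had 30 and 16 counts in Tau mice and 10 and 5 in UNC0642 mice. Scaled to library size these were 1.07 and 0.916 CPM against 0.592 and 0.221 CPM, without overlap, a log2 difference of -1.35 ± 0.56 (95% interval -2.58 to -0.11, adjusted p = 0.529 by edgeR). DESeq2 called Snord17 and Snora78 but not Snora23.

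Xist moved with these levels. Snord17 was at 29.1 to 32.2 CPM in the 3 libraries with over 1000 counts of Xist and at 20.6 to 22.8 CPM in the other 3, including the library labelled WT replicate 1, and Snora78 was at 7.50 to 12.3 against 3.79 to 6.03 CPM. Neither pair of ranges overlapped, while for Snora23 the library labelled WT replicate 1, at 1.14 CPM, lay among the libraries with high Xist. With a term for Xist in the fit, the log2 difference between UNC0642 and Tau mice was 0.08 for Snord17 and 0.14 for Snora78, neither was called, and of the tested members Snord89 was the only one called, as higher. That fit separates treatment from Xist through the 2 WT libraries alone. Of these the library labelled WT replicate 1 went against its label on Prnp, and that difference cannot be told apart from Xist in the term. Within libraries of like Xist level no UNC0642 and Tau libraries could be compared, as each group lay on one side.

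Leaving out Tau replicate 1 or UNC0642 replicate 2 removed all 3 calls, leaving out UNC0642 replicate 1 removed that of Snord17, and leaving out either WT library or Tau replicate 2 removed that of Snora23, although the log2 difference of Snord17 stayed between -0.52 and -0.37 and that of Snora78 between -1.11 and -0.69 in the fits without each library. That of Snora23 moved further, to -0.75 without UNC0642 replicate 2 and to -2.16 without UNC0642 replicate 1. Without Tau replicate 2, the library with the high oligodendrocyte and striatal markers, Snord17 and Snora78 were called lower and Snord118 higher, and the part of those markers in the other values was not tested. Snord118, the U8 RNA, had 4 and 9 counts in Tau and 15 and 15 in UNC0642 mice, a log2 difference of 1.32 ± 0.69 that was not called (adjusted p = 0.612 by edgeR). It has a near-identical annotated copy. Snord7, which guides a modification of the spliceosomal U6 RNA, had the largest positive estimate, 1.64 ± 0.77, on 4 and 3 counts in Tau and 12 and 7 in UNC0642 mice, and was not called (adjusted p = 0.578 by edgeR). Without UNC0642 replicate 2 the estimate of Snord7 was 2.15 and it was called higher, on UNC0642 replicate 1 alone. Snora30 had the largest positive H/ACA estimate, 1.00 ± 0.52, and was not called.

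**Figure D4:**
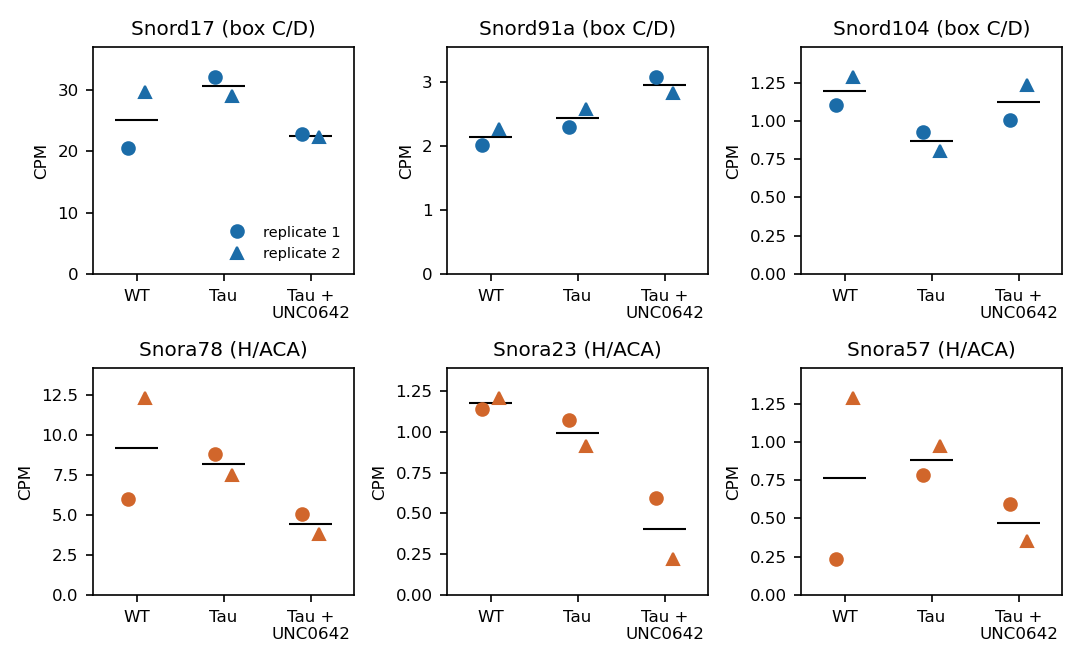
CPM (vertical axes, each from 0) of 6 members in the 3 groups: circles are replicate 1, triangles replicate 2 and lines the mean of the 2 libraries, box C/D in blue and H/ACA in orange. For Snord17 and Snora78 the UNC0642 libraries lie below both Tau libraries and the library labelled WT replicate 1 lies near them, and for Snord91a the UNC0642 libraries, at 2.82 and 3.08 CPM, are the highest.

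UNC0642-treated Tau mice were also compared with WT mice. Snora78 and Snora23 were called lower and no member higher, or 2 of 19 tested members, with 5.69% of all genes tested called lower and 3.77% higher. At an adjusted p under 0.05 none of the members passed, against 0.216% of all genes. Snora78 had 6.03 and 12.3 CPM in WT against 5.09 and 3.79 CPM in UNC0642 mice, and the library labelled WT replicate 1 stood closer to the UNC0642 libraries than to WT replicate 2. Its log2 difference was -1.06 ± 0.31 (95% interval -1.75 to -0.36, adjusted p = 0.237 by edgeR). Snora23, with 29 and 31 counts in WT and 10 and 5 in UNC0642 mice, differed by -1.58 ± 0.54 on the log2 scale (95% interval -2.79 to -0.37, adjusted p = 0.292 by edgeR), and here the WT libraries lay close together. Without UNC0642 replicate 2 the estimate of Snora23 was -0.99 and without UNC0642 replicate 1 -2.39. Median log2 fold changes were -0.09 in box C/D and -0.40 in H/ACA members, against -0.01 over all genes tested. These also turned without WT replicate 2, to 0.32 and 0.46. The box C/D median was 0.18 without the library labelled WT replicate 1, 0.25 without Tau replicate 1 and 0.080 without Tau replicate 2. That of H/ACA was 0.28 without UNC0642 replicate 1. Members outside the 19 could pass the filter in these fits, so a median can turn without any member turning.

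Snord91a was highest in the UNC0642 libraries, at 3.08 and 2.82 CPM against 2.01 and 2.27 CPM in WT mice. The groups did not overlap, and the log2 difference of 0.46 ± 0.28 was not called (95% interval -0.17 to 1.09, adjusted p = 0.549 by edgeR). Snord104 had 1.10 and 1.29 CPM in WT and 1.01 and 1.24 CPM in UNC0642 mice, which overlapped. Without the library labelled WT replicate 1, Snora57 (log2 difference -1.47) and Snord17 (-0.40) were called lower as well, and that of Snora78 was -1.49. That fit set WT replicate 2 alone, with high Xist, against 2 UNC0642 libraries with low Xist. Treatment, genotype and sex cannot be told apart in it. Without WT replicate 2, neither Snora78 nor Snora23 was called and Snord72 was called higher, and without UNC0642 replicate 2 no member was called lower. Snora57 had 6 counts in the library labelled WT replicate 1 and 33 in WT replicate 2, and it has a near-identical annotated copy.

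**Figure D5:**
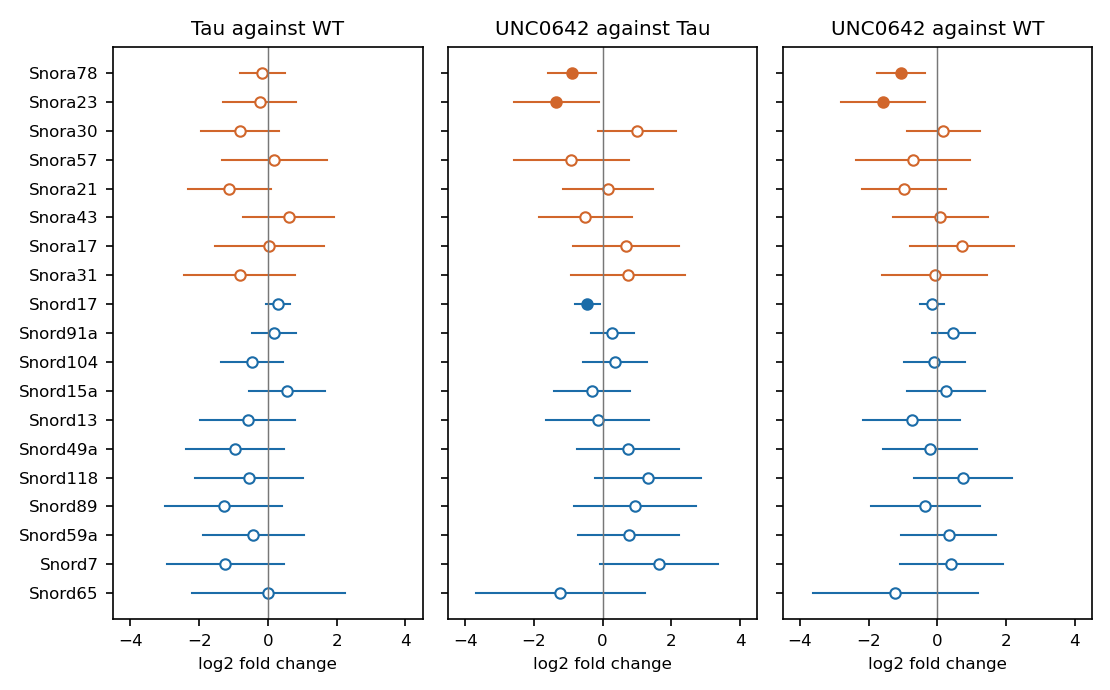
log2 fold change (horizontal axes) of the 19 tested members in the 3 comparisons, with 95% intervals from edgeR's quasi-likelihood fit as lines, H/ACA in orange and box C/D in blue, each class ordered by mean CPM with the highest at the top. Filled points were called (unadjusted p under 0.05 and fold change of at least 1.2). There are 0 filled points for Tau against WT, 3 for UNC0642 against Tau and 2 for UNC0642 against WT, and the intervals widen toward the low members.

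Host genes were set beside the snoRNAs they hold. A host was annotated for 51 members, in 43 distinct genes: 44 members lay in protein-coding and 7 in long noncoding hosts, and 5 had none. Of all members, 13 lay in ribosomal protein genes named Rpl or Rps and a number. That count leaves out Snora62 in the ribosomal protein gene Rpsa. Of the 13 tested members with a tested host, 8 had the sign of their host in Tau against WT mice, 10 in UNC0642 against Tau mice and 8 in UNC0642 against WT mice. The hosts of the 3 called members were not called themselves. Between UNC0642 and Tau mice, Snx5 differed by -0.09 ± 0.09, Snhg9 by -0.21 ± 0.71 and Ipo7 by -0.01 ± 0.07 on the log2 scale. Ipo7 was at 233 and 234 CPM in WT and 264 and 267 CPM in UNC0642 mice, so that it was the higher one in UNC0642 mice (0.19 ± 0.07, adjusted p = 0.321 by edgeR, under the fold change needed for a call) where Snora23 was lower.

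Among the hosts, 4 genes were called in some comparison, and the snoRNAs in them were too low to test in the main fit. Rpl3, a ribosomal protein gene with near-identical pseudogenes that make its counts uncertain, was at 7.14 and 5.78 CPM in WT, 24.0 and 23.1 CPM in Tau and 4.38 and 7.37 CPM in UNC0642 mice, and rose 3.64-fold in Tau against WT mice (adjusted p = 0.0140 by edgeR). Without the library labelled WT replicate 1 the rise was 4.06-fold (adjusted p = 0.0363 by edgeR). Its snoRNAs Snord43 and Snord83b together had 17 and 12 counts in WT, 4 and 10 in Tau and 11 and 13 in UNC0642 mice, or 0.670 and 0.469, 0.143 and 0.573, and 0.651 and 0.573 CPM. Tau replicate 1 was the lowest of these, and Tau replicate 2 lay within the range of the other groups. Ncl, the nucleolin gene and host of Snord82, was lower in UNC0642 than in Tau mice, at 185 and 166 against 225 and 219 CPM (log2 difference -0.34 ± 0.08, adjusted p = 0.327 by edgeR). Rpl37, host of Snord72, was called lower in Tau than WT mice and higher in UNC0642 than Tau mice, with log2 differences of -0.31 and 0.41, and the first was not called without the library labelled WT replicate 1 (-0.27). Rps3a1, host of Snord73a, was called lower in both comparisons with WT, but it stood at 25.3 CPM in the library labelled WT replicate 1 and at 1.32 to 2.07 CPM in the other 5, and without that library it was not called in either.

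The proteins that bind snoRNAs were examined as 2 fixed lists. All 4 core proteins of box C/D particles and all 4 of H/ACA particles were tested, and none was called between Tau and WT or between UNC0642 and Tau mice. Nhp2, an H/ACA core protein, was called higher in UNC0642 than in WT mice, at 23.1 and 25.1 against 20.3 and 19.5 CPM (log2 difference 0.28 ± 0.12, adjusted p = 0.383 by edgeR), and was not called in the fit without either WT library. Of 16 genes for the assembly and maturation of these particles, 0 were called in the first 2 comparisons, and 2 higher (Znhit3 and Nolc1) and 1 lower (Tcof1) in UNC0642 against WT mice. These 3 were also called without the library labelled WT replicate 1, and none of them without WT replicate 2.

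Long noncoding genes were also examined, as a list drawn up for snoRNA hosts. Of 21 tested, 3 were called lower in Tau than in WT mice, namely Snhg11, Meg3 and Snhg20, against 6.10% of all genes tested. Snhg11 and Meg3 were called higher in UNC0642 than in Tau mice, against 3.73% of all genes tested. Snhg11 was at 680 and 679 CPM in WT, 412 and 478 CPM in Tau and 546 and 584 CPM in UNC0642 mice, with adjusted p-values of 0.0409 for the fall and 0.352 for the rise by edgeR, and it was also called lower in UNC0642 than in WT mice (log2 difference -0.27 ± 0.09, adjusted p = 0.269 by edgeR). Without the library labelled WT replicate 1, Snhg11 and Meg3 were still called lower in Tau mice, at an adjusted p of 0.0886 for Snhg11 by edgeR, and Snhg20 was not. None of these 3 genes hosts a member.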

How the data were processed

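RNA of the prefrontal cortex was sequenced in 6 libraries, 2 biological replicates of each group named in the labels. Per the labels and methods, reads were trimmed with Cutadapt and aligned to RefSeq mRNAs with TopHat2 at its default settings (mm10 is named as the build), and the authors deposited raw counts per gene made with featureCounts, without normalization. The annotation file and strand setting of featureCounts, and how it treated reads over several genes or places, are not given in the sources used here, so counts of overlapping or near-identical genes are uncertain. In 2 of the 6 count tables, dates had replaced 26 gene names, and those rows were joined by position.

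Members and gene lists were chosen with earlier results of these data known. The counting limit of 10 was planned as the main rule and replaced by the rule's own fallback. Counts were analysed in edgeR 4.0.16 (R 4.3.3): filterByExpr (minimum count 10, minimum total 15) left 20409 genes, TMM factors were 0.966 to 1.04, and 1 quasi-likelihood model, with 3 group means and 3 residual degrees of freedom, described every library. Calls needed both an unadjusted p under 0.05 and a fold change of 1.2 or more, and Benjamini-Hochberg adjustment ran over every tested gene. With 2 libraries a group, intervals are wide, and those of single shares and the floor of 3 counts cover counting error only. The fit was tested on simulated data.

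Coordinates, hosts and transcript sequences were taken by symbol from GENCODE M21 (GRCm38). Of the 121 symbols, 118 matched 1 gene and 3 matched 2. A host is the smallest protein-coding or long noncoding gene around a snoRNA on its strand, and a near-identical copy is another annotated gene with at least 95% identity over 90% of the length by blastn 2.17.0, which 6 members had. No member overlapped an exon on the other strand. Named members are the 6 of each class with the highest mean CPM, those called, those with the largest and smallest log2 fold change per class and comparison, and U8, U13 and a few other known snoRNAs; the other members and listed genes named were chosen after their values were seen.

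Alternatives were DESeq2 1.42.0 size factors and Wald test, library size alone, no filter, at least 10 counts in every library, the compared groups alone, adjusted p-values, a replicate block, and fits without each library. A term for Xist, membership by 10 counts, the sums without WT replicate 1 and the listed genes without each WT library were chosen after seeing the data. Same-numbered libraries came from different mice. Summaries were made in Python 3.11.15 with pandas 2.3.3, numpy 2.4.6, scipy 1.17.1 and, for plots, matplotlib 3.10.9.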

Additional observations from a re-analysis of the deposited data

How the results depend on the processing

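The 51 log2 fold changes of named members had 669 values under the alternatives, of which 637 stayed on their side of the threshold (38 of them, uncalled, with the other sign), 30 changed side and 2 reversed: with the term for Xist, Snord17 (0.082) and Snora78 (0.14) between UNC0642 and Tau mice. The same term moved the members called lower to 3 (Tau against WT), 0 (UNC0642 against Tau) and 1 (UNC0642 against WT). Those called higher went to 1 (UNC0642 against Tau). Over all genes, 9.21% (Tau against WT), 8.05% (UNC0642 against Tau) and 10.1% (UNC0642 against WT) were called in either direction with it. The median of H/ACA went to 1.02 (UNC0642 against Tau) and 0.35 (UNC0642 against WT), and that of box C/D to 0.19 (UNC0642 against WT). Without a filter 1 member was called higher in Tau than WT mice, with 8.07% of 34535 genes called in either direction. Snora78 then had adjusted p-values of 0.00925 against Tau and 2.63e-04 against WT mice by edgeR. With at least 10 counts in every library 1 member was called lower against WT, with 10.2% of 16879 genes called in either direction. Medians were then 0.21 and -0.0066 in box C/D (Tau against WT, UNC0642 against Tau). They were -0.88 and -1.07 for the lone H/ACA member (UNC0642 against Tau and WT). In the 2 compared groups alone the H/ACA median was -0.70 between UNC0642 and Tau mice. At an adjusted p of 0.05, 0 members were called in each comparison in the main fit. Sums without Snord17 were 12.4, 10.6 and 13.1 CPM in WT, Tau and UNC0642 mice, and without Snora78 6.68, 5.67 and 5.26 CPM. Without the library labelled WT replicate 1 the WT sums were 43.2 (box C/D) and 20.7 CPM (H/ACA).

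In fits without each library, members called ranged from 0 to 2 higher and 0 to 3 lower (Tau against WT), 0 to 1 higher and 0 to 2 lower (UNC0642 against Tau), and 0 to 1 higher and 0 to 4 lower (UNC0642 against WT). Over the members tested in each, medians ranged from -0.67 to 0.13 (box C/D) and -0.54 to 0.67 (H/ACA) for Tau against WT. In the same order they ranged from 0.32 to 0.43 and from -0.55 to 0.32 for UNC0642 against Tau. For UNC0642 against WT the ranges were -0.063 to 0.32 and -0.61 to 0.46. Except where libraries or genes were removed, the cause was not tested. The replicate block called 3 members lower between UNC0642 and Tau mice, 2 against WT and 0 between Tau and WT, as without it. Over all genes it called 6.88%, 8.6% and 8.78% in these comparisons, in either direction. Same-numbered libraries did not deviate together (correlations of -0.034, -0.021 and -0.0033). Depth limits most members, of which 5 had at least 10 counts in every library. Among these 5 the SE of Snord15a was still 0.50 in Tau against WT mice.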

Other observations

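Small Cajal body RNAs guide the same modifications in spliceosomal RNA. Scarna13, at 200.7 CPM per kb, Scarna2, at 138.0, and Scarna6, at 124.2, were above Snord17 (109.8 CPM per kb). The median of the 37 annotated genes of this kind that no exon of another gene overlapped was 0.265 CPM per kb, and 15 of them were at 0. Over the 5 overlapped genes of this kind the median was 0.153 CPM per kb, and 1 of them was above 5 CPM per kb. Scarna2 was at 56.4 and 55.9 CPM in WT, 63.2 and 63.3 CPM in Tau and 54.5 and 49.3 CPM in UNC0642 mice, and was the 1 of 5 tested that was called, lower in UNC0642 than in Tau mice by -0.29 ± 0.09 on the log2 scale (adjusted p = 0.431 by edgeR). As for Snord17, both Tau libraries lay above both UNC0642 libraries, but the WT libraries lay close together.

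Other short RNAs differed in scale and pattern. Rn7sk, the RNA that holds back the elongation factor P-TEFb, reached 49344 CPM per kb and was at 14981 to 17956 CPM in single libraries. Rny3, a Y RNA bound by Ro60, had 18.1 and 50.0 CPM in WT, 17.5 and 31.6 CPM in Tau and 17.1 and 16.7 CPM in UNC0642 mice, with its highest level in WT replicate 2. Rnu12, the U12 RNA of the minor spliceosome, also peaked there, at 4.92 CPM against 1.32 to 3.95 CPM in the other 5 libraries. Both were called lower in UNC0642 than in WT mice, by -1.01 ± 0.39 and -1.13 ± 0.44 on the log2 scale, with adjusted p-values of 0.346 and 0.343 by edgeR. Without WT replicate 2 neither was called (-0.10 and -0.59). Without the library labelled WT replicate 1 the log2 differences were -1.57 and -1.53. In that fit WT replicate 2 alone, with high Xist, was set against the UNC0642 libraries with low Xist.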
